A study of Mus musculus with 12 samples.

Results

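The long noncoding RNA genes described here in mouse embryonic fibroblasts (MEF) are Malat1, Neat1, Kcnq1ot1, Meg3, Rian, Mirg, H19, Airn, Snhg14 and Gm26917. They were taken by symbol from the count files, as autosomal long noncoding RNAs that are held in the nucleus or imprinted, and they make up 10 of 55487 genes counted per library. All 10 passed the filter on low counts in every comparison. The series measured total RNA and ribosome-associated RNA, the RNA recovered with a purified ribosome pellet and called translated RNA in the sample titles. All cells were primary MEF cultures from E13.5 embryos with an HTT-floxed (HTTfl/fl) genotype, so the controls carried the floxed alleles too. HTT-deleted cells had received a lentivirus encoding Cre recombinase with GFP, and control cells a lentivirus encoding H2B-eGFP, and both were harvested 7 days after transduction. Deletion of Htt and the presence of Cre therefore cannot be told apart. There were 4 groups of 3 libraries: ribosome-associated RNA of HTT-deleted cells, ribosome-associated RNA of control cells, total RNA of HTT-deleted cells and total RNA of control cells. Per the labels a replicate was either another primary culture or an independent passage, and the p-values cover only that spread.

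These RNAs act as RNA and are not known as messengers. Malat1 concentrates in nuclear speckles, and Neat1 is the scaffold around which paraspeckles form. The others, apart from Gm26917, are transcribed from the maternal or the paternal chromosome only: Meg3, Rian and Mirg lie in a row in the maternally expressed part of the Dlk1-Dio3 domain, H19 is the maternally expressed neighbour of Igf2, and Kcnq1ot1, Airn and Snhg14 are paternally expressed antisense transcripts whose transcription or product silences neighbouring genes such as Cdkn1c, Igf2r and Ube3a. Several also carry small RNAs, namely microRNAs in Meg3, Rian, Mirg and H19 and small nucleolar RNAs in Rian and Snhg14. H19 is known as the member found largely in the cytoplasm. The libraries compared ribosome-associated with total RNA and held no nuclear fraction, so location in the nucleus was not measured.

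Malat1 and the long isoform of Neat1 lack an ordinary poly(A) tail, while the short isoform of Neat1 has one. The ends without a tail are cut at a tRNA-like structure and hold U-rich and A-rich stretches that fold into a triple helix. The stretches are shown because they set these transcripts apart from ordinary messengers. Neat1 was counted as a whole gene, so its isoforms cannot be told apart in these counts. They were read from GENCODE M21 transcripts (GRCm38) and are written as DNA. Capitals mark the runs of at least 11 bases that both share in the same order, namely TTTCTTTTCCTGA and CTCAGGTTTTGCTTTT around the U-rich stretches and AAAAAGCAAAA in the A-rich one.
Malat1: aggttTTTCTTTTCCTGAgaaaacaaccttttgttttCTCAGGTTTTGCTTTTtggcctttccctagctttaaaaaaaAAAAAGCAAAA
Neat1: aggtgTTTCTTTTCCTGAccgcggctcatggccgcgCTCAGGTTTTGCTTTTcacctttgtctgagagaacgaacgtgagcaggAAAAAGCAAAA
The Malat1 stretch covers chr19:5795982-5796070 on the minus strand and stops 292 bases before the annotated transcript end. The Neat1 stretch covers chr19:5824708-5824802 on the minus strand and ends with the annotated transcript. The runs came from comparing these genes, so their joint presence here is how they were found, and only the transcript's own strand was searched. In this order and within 150 bases they occurred in 2 of 55450 genes (0.00361%), Malat1 and Neat1. Alone, the first run occurred in 0.0379% of genes, the second in 0.00361% and the A-rich one in 0.678%.

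The start of Meg3 is shown because Meg3, Rian and Mirg follow each other on the plus strand of chromosome 12. The RefSeq window (GRCm38.p6, chr12:109540746-109541045, plus strand) holds a cAMP response element, TGACGTCA, given in capitals from base 194.
Meg3 promoter: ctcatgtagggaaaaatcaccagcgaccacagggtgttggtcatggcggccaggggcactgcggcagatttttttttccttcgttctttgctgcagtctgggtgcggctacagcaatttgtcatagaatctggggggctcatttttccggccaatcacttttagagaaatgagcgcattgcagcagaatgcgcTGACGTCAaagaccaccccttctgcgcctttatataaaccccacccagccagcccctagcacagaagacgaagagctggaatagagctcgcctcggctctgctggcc
The motif reads the same on both strands, and 588 of 32851 windows of this length (1.79%) held it. The window held 13 CpG sites, against a median of 7 over all windows, and 37.9% of windows held at least 13. A second Meg3 window, at a start further along the gene, held 1 CpG site and no such motif. Windows were found for 7 of the 10 genes. The Rian window held 0 CpG sites and the Mirg window 10, and neither held the motif.

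Meg3, Rian, Mirg and H19 host annotated microRNAs, and the mature sequences from RefSeq (GRCm38.p6) show what sits inside the host transcripts, with the seed (bases 2 to 8) in capitals. H19 holds a single microRNA gene, and 2 of the 26 mature microRNAs of Mirg share a seed.
mmu-miR-675-5p (H19): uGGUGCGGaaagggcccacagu
mmu-miR-675-3p (H19): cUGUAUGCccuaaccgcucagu
mmu-miR-453 (Mirg): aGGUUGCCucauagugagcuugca
mmu-miR-496a-5p (Mirg): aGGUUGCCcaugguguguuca
The libraries were long RNA libraries, and these small genes were barely counted. The single microRNA gene in H19, both in Meg3 and all 4 in Rian had 0 counts in every library. Of the 14 in Mirg, 7 had any count, with 0 to 34 counts per library over all of them. The 13 small nucleolar RNA genes inside Rian and the 208 inside Snhg14 were at 0 as well. Reads over a small RNA and its host can fall to neither gene in the counting, and this was not tested.

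On GRCm38 the members span very different lengths. Malat1 (ENSMUSG00000092341, chr19:5795690-5802672, minus strand) and Neat1 (ENSMUSG00000092274, chr19:5824708-5845478, minus strand) are neighbours and each is annotated as 1 exon block. Kcnq1ot1 (ENSMUSG00000101609, chr7:143203458-143296549, minus strand) is a single exon of 93092 bases that runs antisense to Kcnq1. H19 (ENSMUSG00000000031, chr7:142575529-142578143, minus strand) has 2460 exonic bases, the fewest of the 10. Meg3 (ENSMUSG00000021268, chr12:109541001-109571726), Rian (ENSMUSG00000097451, chr12:109603940-109661716) and Mirg (ENSMUSG00000097391, chr12:109729764-109749460) have 18089, 18234 and 7292 exonic bases. Airn (ENSMUSG00000078247, chr17:12741311-12860136, plus strand) has 3597 exonic bases, and Snhg14 (ENSMUSG00000100826, chr7:59307924-59975759, minus strand) has 26093. Gm26917 (ENSMUSG00000097971, chr17:39843013-39846341, plus strand) lies 11 bases from CT010467.1, a gene annotated as ribosomal RNA, and its counts are uncertain where reads match repeated ribosomal sequence.

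Exons of genes on the opposite strand cover 6.91% of the exonic bases of Snhg14 (Ube3a), 6.79% of Meg3, 6.49% of Malat1, 5.73% of H19 and 1.20% of Kcnq1ot1. The libraries were stranded, per the labels. Beside Gm26917, 99.5% of the exonic bases of Gm42418 lie under opposite-strand exons. Gm42418 nevertheless had 28594 to 115782 counts per library, while CT010467.1 on the other strand had 6 to 30, so the counts there were separated by strand.

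Gene counts per library ran from 16789356 to 30571501, and 3 counts, the limit that a count of 0 allows, came to 0.0981 to 0.179 CPM, which covers counting error only. For Htt, the HTT-deleted libraries all lay below the control libraries of their fraction, with 12.8, 5.04 and 3.98 CPM against 22.6, 20.1 and 32.0 CPM in ribosome-associated RNA and 15.5, 10.6 and 10.7 CPM against 58.9, 45.7 and 64.5 CPM in total RNA. Its log2 fold change was -1.78 in ribosome-associated and -2.16 in total RNA, and neither was called by edgeR after adjustment over all genes (adjusted p = 1 and 0.812), while DESeq2 called the second. All 10 fibroblast markers were above 1 CPM on average in every group, and macrophage markers are given with the effect of HTT deletion. Over all 12 libraries the 5 neural markers summed to 83.1 to 223 CPM, the 5 endothelial markers to 10.9 to 22.4 CPM, the 5 muscle markers to 2.03 to 21.4 CPM and the 5 epithelial markers to 1.98 to 5.00 CPM. The neural sum was mostly Map2, which averaged 112.8 to 177.5 CPM per group. Tubb3 averaged 4.69 to 5.95 CPM and Syp 1.29 to 2.35 CPM, and only 3 of the 5 neural markers averaged at least 1 CPM in a group. Of the muscle markers Myod1 was at 0 in every library, and Des averaged 5.39 to 10.7 CPM per group. A single library lay apart from the rest, HTT-deleted replicate 1 of total RNA, where Malat1, Gm26917 and Kcnq1ot1 were above the range of the 5 other total libraries, and Rian, Airn and H19 were below it. Malat1 had 1839 CPM in that library, against 552 to 1185 CPM in the others, and Rian had 86.6 CPM, against 141 to 232 CPM. Fold changes of the members that use it are given with and without it.

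Per kilobase of exon, H19 was the highest of the 10 in all 4 groups. Its mean level was 1673 ± 407 CPM per kb in ribosome-associated RNA of HTT-deleted cells and 1716 ± 489 CPM per kb in that of control cells (SD, n = 3 each). In total RNA the means were 988 ± 319 CPM per kb in HTT-deleted cells and 1098 ± 252 CPM per kb in control cells (SD, n = 3 each). Malat1 came next in every group, and no library of it reached the lowest H19 library of its group.

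The lower ranks differed between the fractions. In ribosome-associated RNA of control cells the order after Malat1 (42.3 CPM per kb) was Neat1 (13), Rian (6.41), Gm26917 (3.87), Airn (1.77), Meg3 (0.930), Mirg (0.342), Snhg14 (0.0592) and Kcnq1ot1 (0.0120). Airn and Meg3 overlapped in that group, as did Meg3 and Mirg. In total RNA of control cells the order after Malat1 (140 CPM per kb) was Gm26917 (46.9), Neat1 (25.3), Meg3 (12.6), Rian (10.5), Airn (3.40), Mirg (2.43), Kcnq1ot1 (0.367) and Snhg14 (0.214), and of these neighbours Meg3 and Rian overlapped. HTT-deleted cells had the same orders, with overlaps of Rian with Gm26917 and Meg3 with Mirg in ribosome-associated RNA and of Meg3 with Rian and Airn with Mirg in total RNA.

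H19 made up 84.1 to 89.7% of the members' reads in ribosome-associated RNA of HTT-deleted cells and 77.3 to 90.7% in that of control cells, against 38.8 to 68.5% and 49.9 to 60.1% in total RNA of HTT-deleted and control cells. The 10 genes together held 0.383 to 0.585% of gene counts in ribosome-associated RNA of HTT-deleted cells and 0.383 to 0.611% in that of control cells, against 0.410 to 0.505% and 0.424 to 0.577% in the total RNA of HTT-deleted and control cells. Without H19 the shares were 0.0600 to 0.0715% and 0.0567 to 0.0868% in ribosome-associated RNA of HTT-deleted and control cells, against 0.158 to 0.309% and 0.211 to 0.230% in total RNA. The fractions overlapped with H19 counted and did not overlap without it.

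**Figure D1:**
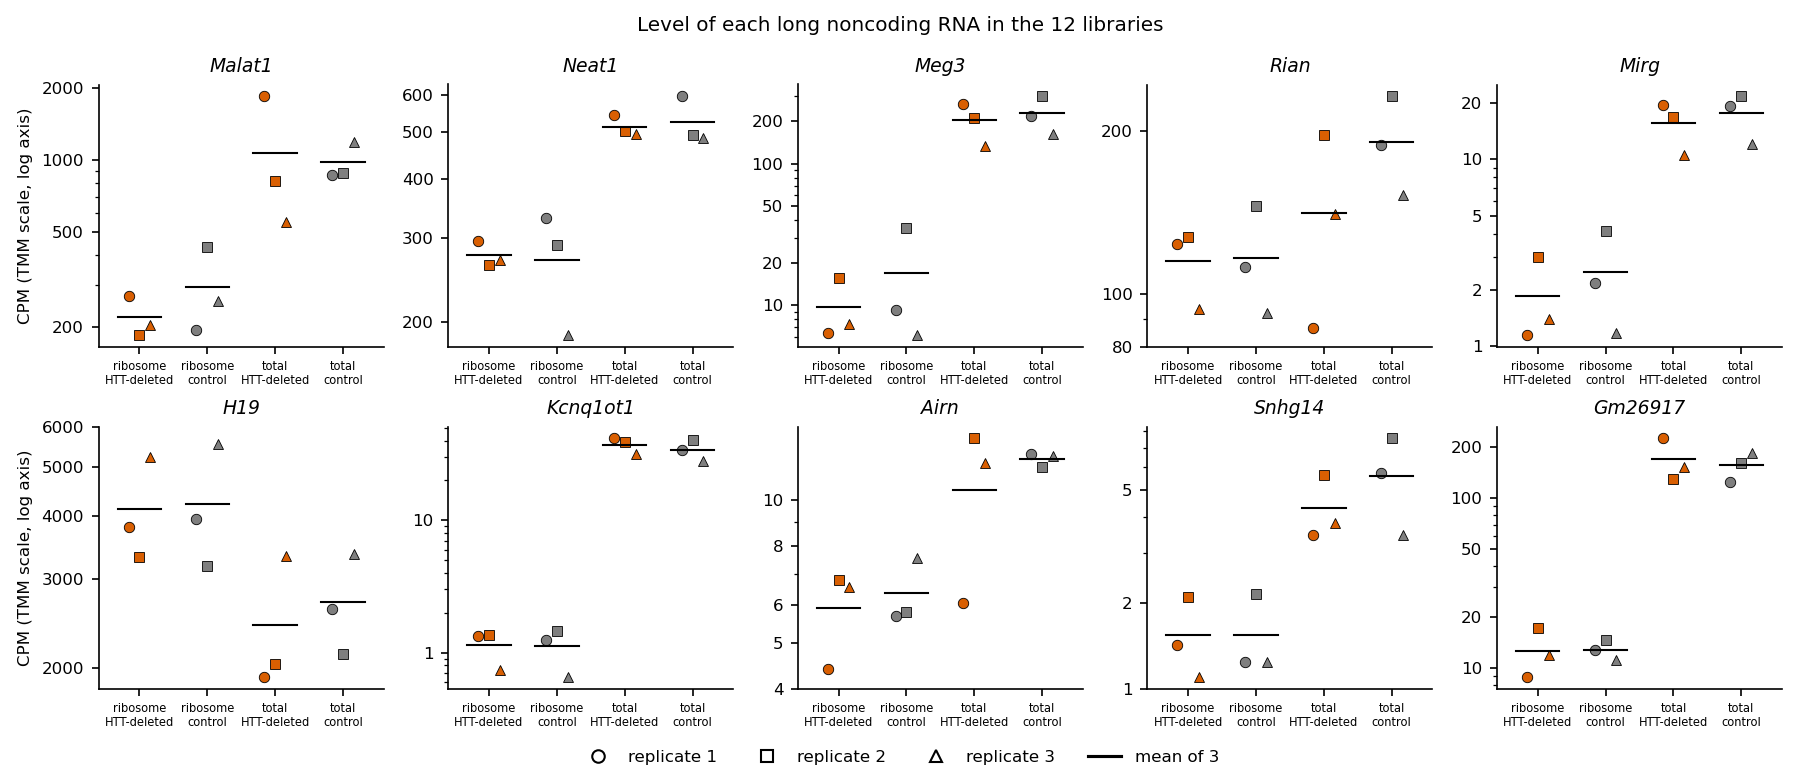
Level of each of the 10 long noncoding RNAs in CPM (counts scaled to library size, TMM scale, log axis) in the 12 libraries, with HTT-deleted libraries in orange, control libraries in grey, a symbol for each replicate number and a line at the mean of 3. In control cells 9 of the 10 sit lower in ribosome-associated than in total RNA with no overlap, and H19 sits higher with overlap.

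The comparison of ribosome-associated with total RNA asks which of these RNAs were recovered with ribosomes. CPM are shares of a library, so a lower value means a smaller share of that library's counts and says nothing of the amount recovered. In control cells 9 of the 10 fell in ribosome-associated RNA, where 15% of 14990 genes were called lower and 10% higher (25% in all). Calls are those of edgeR's quasi-likelihood test without blocking on the replicate number, with a Benjamini-Hochberg threshold of 0.05. The one not called was H19, with a fold change above 0. In HTT-deleted cells 4 of the 10 fell, namely Kcnq1ot1, Meg3, Gm26917 and Mirg, where 0.896% of 14627 genes were called lower and 0% higher. The members' median log2 fold change was -1.89 in HTT-deleted cells and -1.80 in control cells, against 0.00 and 0.02 over all genes tested and -0.35 and -0.31 over the 815 and 924 genes tested with a long noncoding biotype. Of those genes, 28 were called lower in HTT-deleted cells and 189 in control cells.

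The fold changes spread over more than 5 log2 units. Scaling by library totals in place of TMM moved the split of all calls in control cells to 852 higher and 2386 lower, from 1499 higher and 2246 lower with TMM, and all 9 members were called lower under both. Blocking on the replicate number gave 3647 genes called higher (24.3%) and 3877 lower (25.9%) in control cells (50.2% in all), and 0.663% called lower in HTT-deleted cells. When total HTT-deleted replicate 1 was left out, 1805 of 15141 genes were called lower in HTT-deleted cells (11.9%), and 8 of the 10 members with them, while 7.95% were called higher (19.9% in all). Without it the log2 fold changes of the members named as called in HTT-deleted cells were -4.95 for Kcnq1ot1, -4.14 for Meg3, -3.47 for Gm26917 and -2.89 for Mirg, and that of H19, not called, was 0.61. Leaving out another library of the HTT-deleted groups left 0 or 1 member called. As a description, since few degrees of freedom remain, pairs 2 and 3 alone, with the block, called 9 of the 10 in HTT-deleted cells, where 55.6% of genes were called, and 8 in control cells, where 49.2% were.

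Kcnq1ot1, which silences its neighbours from the paternal chromosome, had the lowest fold change of the 10. In HTT-deleted cells it had 1.33, 1.36 and 0.736 CPM in ribosome-associated RNA, against 41.5, 38.8 and 31.5 CPM in total RNA. In control cells it had 1.24, 1.47 and 0.653 CPM in ribosome-associated RNA, against 33.9, 40.5 and 28.0 CPM in total RNA. No ribosome-associated library came near a total library in either condition. The ribosome-associated levels rested on 20 to 33 reads per library. On the log2 scale the fold change was -5.04 (SE 0.30, edgeR adjusted p = 0.0108) in HTT-deleted cells and -4.97 (SE 0.31, edgeR adjusted p = 0.000668) in control cells. From the lowest fold change upward it ranked 26th of all genes tested in HTT-deleted cells and 27th in control cells, and 5th and 6th among long noncoding genes.

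Airn, the antisense transcript that silences Igf2r, lay much closer to its total level. Its counts cover 3597 exonic bases of a locus of 118826 bases, while Kcnq1ot1 was counted over all 93092 bases of its locus. The part of this in their different fold changes was not tested. In HTT-deleted cells Airn had 4.40, 6.78 and 6.55 CPM in ribosome-associated RNA, against 6.07, 13.52 and 11.96 CPM in total RNA. Control cells had 5.70, 5.82 and 7.55 CPM in ribosome-associated RNA, against 12.5, 11.7 and 12.4 CPM in total RNA. The control fractions did not overlap, while the HTT-deleted fractions did, through total HTT-deleted replicate 1. By edgeR the log2 fold change was -0.84 (SE 0.35, edgeR adjusted p = 0.404) in HTT-deleted cells and -0.94 (SE 0.16, edgeR adjusted p = 0.00750) in control cells. Without total HTT-deleted replicate 1 the value in HTT-deleted cells was -1.11 and was called. A fit of all 12 libraries ended the call in control cells.

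Snhg14, the long host of small nucleolar RNAs that runs into Ube3a, was the rarest per kilobase in total RNA. Snhg14 had 1.42, 2.11 and 1.10 CPM in ribosome-associated RNA of HTT-deleted cells, against 3.48, 5.62 and 3.83 CPM in their total RNA. In control cells it had 1.24, 2.15 and 1.24 CPM in ribosome-associated RNA, against 5.73, 7.56 and 3.47 CPM in total RNA. Neither condition had an overlap between the fractions. The ribosome-associated levels rested on 20 to 51 reads per library. The log2 fold change was -1.49 (SE 0.36, edgeR adjusted p = 0.135) in HTT-deleted cells and -1.86 (SE 0.38, edgeR adjusted p = 0.0142) in control cells. Among the fits that left out a library, Snhg14 was called in HTT-deleted cells only without total HTT-deleted replicate 1, at -1.62. Without replicate 1 of either control group, Snhg14 was no longer called in control cells.

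The maternally expressed RNAs of the Dlk1-Dio3 domain behaved unlike each other. Meg3, known as a regulator of p53 and of chromatin, had 6.33, 15.6 and 7.44 CPM in ribosome-associated RNA of HTT-deleted cells, against 264, 212 and 133 CPM in their total RNA. In control cells Meg3 had 9.30, 35.0 and 6.18 CPM in ribosome-associated RNA, against 219, 299.5 and 163 CPM in total RNA. Every ribosome-associated library lay below every total library, and replicate 2 had the highest ribosome-associated level in both conditions. On the log2 scale the fold change was -4.38 (SE 0.45, edgeR adjusted p = 0.0199) in HTT-deleted cells and -3.78 (SE 0.71, edgeR adjusted p = 0.0145) in control cells, where the call was lost with no filter on low counts.

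Mirg, the microRNA host at the far end of the row, had a fold change between those of Meg3 and Rian. Mirg had 1.15, 3.02 and 1.40 CPM in ribosome-associated RNA of HTT-deleted cells, against 19.6, 16.9 and 10.5 CPM in their total RNA. Control cells had 2.17, 4.13 and 1.18 CPM in ribosome-associated RNA, against 19.4, 21.7 and 12.1 CPM in total RNA. As for Meg3, the fractions did not overlap and replicate 2 was highest on ribosomes. The ribosome-associated levels rested on 25 to 90 reads per library. By edgeR the log2 fold change was -3.08 (SE 0.45, edgeR adjusted p = 0.0374) in HTT-deleted cells and -2.86 (SE 0.48, edgeR adjusted p = 0.00992) in control cells.

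Rian, the host of small nucleolar RNAs between Meg3 and Mirg, kept most of its share on ribosomes. Rian had 124, 128 and 93.8 CPM in ribosome-associated RNA of HTT-deleted cells, against 86.6, 197 and 141 CPM in their total RNA. In control cells it had 112, 146 and 92.6 CPM in ribosome-associated RNA, against 189, 232 and 152 CPM in total RNA. The control fractions were apart by a small margin, and in HTT-deleted cells total replicate 1 lay below all 3 ribosome-associated libraries. The log2 fold change was -0.31 (SE 0.31, edgeR adjusted p = 0.830) in HTT-deleted cells and -0.72 (SE 0.21, edgeR adjusted p = 0.0492) in control cells. Its call in control cells was the least stable of the 9: RLE or upper quartile scaling, no filter, a fit of all 12 libraries and the omission of any of 4 libraries each ended it. Without total HTT-deleted replicate 1 the log2 fold change in HTT-deleted cells was -0.56 and was not called.

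Malat1 was lower on ribosomes in every replicate pair. It had 269, 186 and 206 CPM in ribosome-associated RNA of HTT-deleted cells, against 1839, 817 and 552 CPM in their total RNA. In control cells Malat1 had 194, 434 and 257 CPM in ribosome-associated RNA, against 864, 878 and 1185 CPM in total RNA. The fractions did not overlap, and the total libraries of HTT-deleted cells were the most spread. On the log2 scale the fold change was -2.29 (SE 0.46, edgeR adjusted p = 0.0794) in HTT-deleted cells and -1.74 (SE 0.30, edgeR adjusted p = 0.0111) in control cells. Without total HTT-deleted replicate 1 the log2 fold change in HTT-deleted cells was -1.64 and was called, and in control cells the call was lost with no filter on low counts.

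Neat1 was lower on ribosomes by less than Malat1 in the fitted values. Neat1 had 296, 264 and 270 CPM in ribosome-associated RNA of HTT-deleted cells, against 544, 503 and 496 CPM in their total RNA. Control cells had 332, 290 and 188 CPM in ribosome-associated RNA, against 595, 493 and 487 CPM in total RNA. The fractions did not overlap in either condition, and total HTT-deleted replicate 1 was within the range of the other total libraries for Neat1. By edgeR the log2 fold change was -0.91 (SE 0.15, edgeR adjusted p = 0.0508) in HTT-deleted cells and -0.97 (SE 0.22, edgeR adjusted p = 0.0207) in control cells. Neat1 was called in HTT-deleted cells without total HTT-deleted replicate 1, at -0.86. Without total control replicate 1 it was not called in control cells.

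Gm26917, an RNA of no established role, had 8.90, 17.3 and 12 CPM in ribosome-associated RNA of HTT-deleted cells, against 224, 129 and 153 CPM in their total RNA. In control cells Gm26917 had 12.8, 14.7 and 11.2 CPM in ribosome-associated RNA, against 124, 160 and 184 CPM in total RNA. The fractions were far apart in both conditions. The log2 fold change was -3.74 (SE 0.34, edgeR adjusted p = 0.0191) in HTT-deleted cells and -3.61 (SE 0.17, edgeR adjusted p = 0.000327) in control cells.

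H19 was the only member with a fold change above 0 on ribosomes. H19 had 3805, 3307 and 5234 CPM in ribosome-associated RNA of HTT-deleted cells, against 1917, 2038 and 3335 CPM in their total RNA. In control cells it had 3945, 3180 and 5538 CPM in ribosome-associated RNA, against 2611, 2133 and 3360 CPM in total RNA. The fractions overlapped in both conditions, but within each of the 3 same-numbered pairs H19 was higher on ribosomes. On the log2 scale the fold change was 0.75 (SE 0.31, edgeR adjusted p = 0.396) in HTT-deleted cells and 0.64 (SE 0.25, edgeR adjusted p = 0.107) in control cells. Blocked on the replicate number, the value in control cells was 0.62 (SE 0.0851, edgeR adjusted p = 4.8e-05), which made it a call, as did DESeq2, and over the alternatives other than pairs 2 and 3 alone its adjusted p ran from 4.8e-05 to 0.254. With the block, all 10 members were thus called in control cells, 9 lower and 1 higher.

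In HTT-deleted cells 7 of the 10 had every ribosome-associated library below every total library, as did 11.6% of all genes tested, and 8.91% had every one above. In control cells 9 of the 10 lay below, as did 23.5% of all genes tested, and 20.6% lay above.

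**Figure D2:**
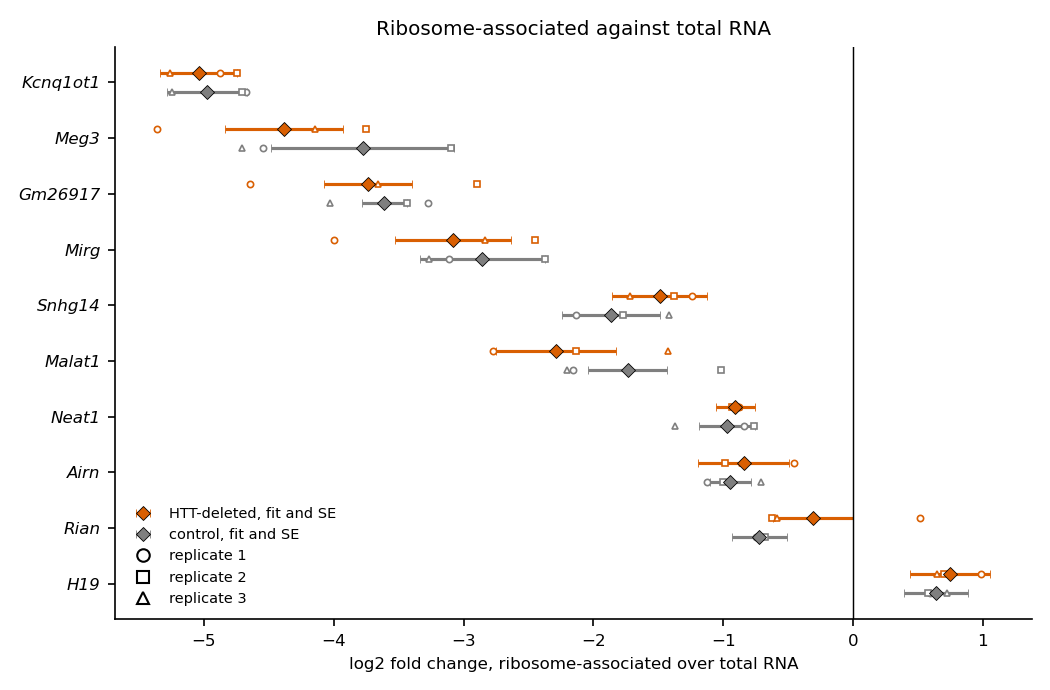
Log2 fold change of ribosome-associated over total RNA for each of the 10 RNAs, with HTT-deleted cells (orange) above control cells (grey). Filled diamonds with bars are the edgeR fit and its standard error, and open symbols are the 3 same-numbered pairs. Kcnq1ot1 is lowest in both conditions at -5.04 and -4.97, Rian replicate 1 of HTT-deleted cells lies above 0, and all H19 pairs lie above 0.

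**Figure D3:**
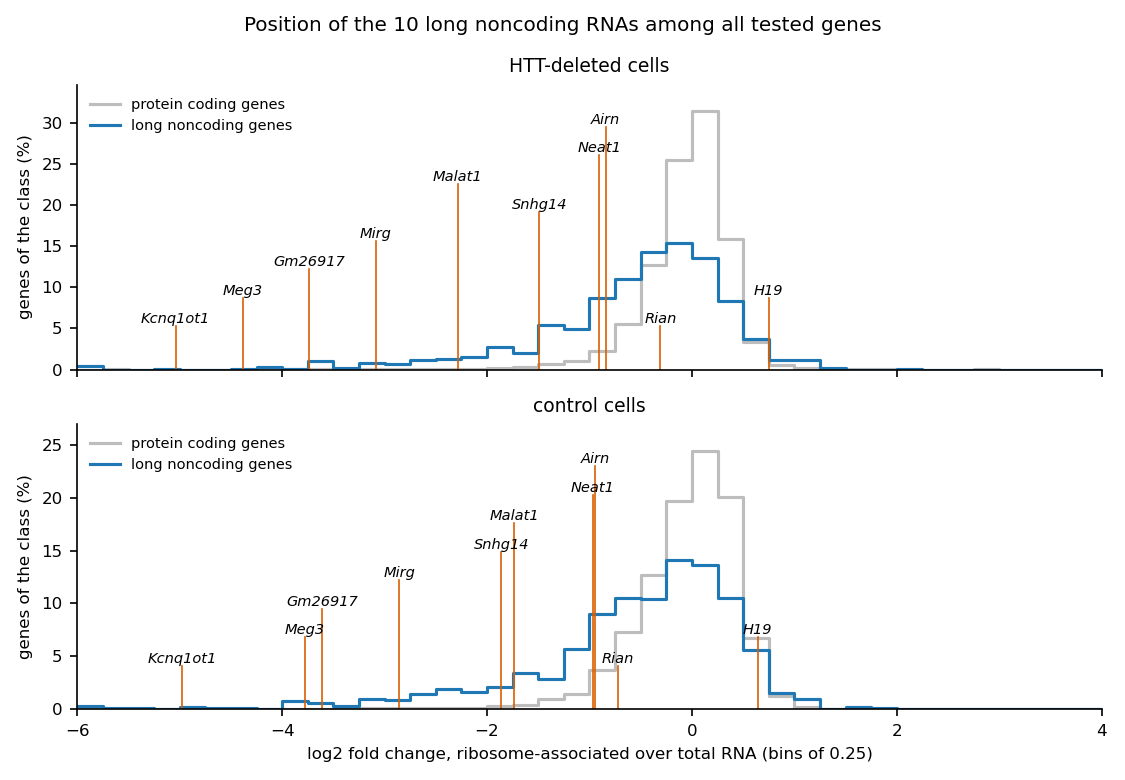
Distribution of the log2 fold change of ribosome-associated over total RNA in HTT-deleted (top) and control cells (bottom), as the percentage of genes of a class in bins of 0.25 on the log2 scale, for protein coding (grey) and long noncoding (blue) genes. Orange lines mark the 10 RNAs, whose heights carry no value. Most of the 10 lie left of the peak of both classes, and H19 lies right of it.

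Ratios of read counts within a library need no scaling between libraries. Each was tested with an exact two-sided permutation test of 3 against 3, which cannot go below p = 0.1. Over the 40 such tests, of 10 ratios in 4 comparisons, a p of 0.1 became 0.235 after Benjamini-Hochberg adjustment. The Meg3 to Rian ratio was 0.0511, 0.122 and 0.0793 in ribosome-associated RNA of HTT-deleted cells, against 3.05, 1.08 and 0.947 in their total RNA. In control cells it was 0.0828, 0.240 and 0.0667 in ribosome-associated RNA, against 1.16, 1.29 and 1.07 in total RNA. The fractions did not overlap, so that Meg3, with about as many reads as Rian in total RNA of control cells, had far fewer on ribosomes. The difference on the log2 scale was -4.20 in HTT-deleted and -3.41 in control cells (exact permutation p = 0.1 for each).

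Mirg and Meg3 also separated from each other. The Mirg to Meg3 ratio was 0.181, 0.193 and 0.188 in ribosome-associated RNA of HTT-deleted cells, against 0.0743, 0.0797 and 0.0791 in their total RNA. In control cells it was 0.233, 0.118 and 0.190 in ribosome-associated RNA, against 0.0885, 0.0725 and 0.0740 in total RNA. All ribosome-associated ratios were above all total ratios, by 1.28 on the log2 scale in HTT-deleted cells and 1.17 in control cells (exact permutation p = 0.1 for each). In HTT-deleted cells this ratio varied little, with an SD of 0.0387 on the log2 scale on ribosomes and 0.0558 in total RNA.

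The antisense RNAs were also set against protein-coding genes they are known to silence, though silencing in these cells was not measured. The Kcnq1ot1 to Cdkn1c ratio was 0.0146, 0.0117 and 0.0188 in ribosome-associated RNA of HTT-deleted cells, against 0.431, 0.492 and 1.03 in their total RNA, a log2 difference of -5.32. In control cells the difference was -5.56. The Snhg14 to Ube3a ratio differed by -1.47 in HTT-deleted and -1.84 in control cells, and the Airn to Igf2r ratio by -0.72 and -0.53. Each of these had no overlap between the fractions (exact permutation p = 0.1 for each). None of the 10 ratios separated HTT-deleted from control cells in either fraction, with exact permutation p from 0.3 to 1. Omitting total HTT-deleted replicate 1, which leaves a value with no test, moved the fraction difference in HTT-deleted cells to -3.67 for Meg3 to Rian, -5.56 for Kcnq1ot1 to Cdkn1c, -1.68 for Snhg14 to Ube3a, -0.67 for Airn to Igf2r and 1.25 for Mirg to Meg3, all without overlap. Between HTT-deleted and control cells in total RNA, Meg3 to Dlk1 then lay lower without overlap, at -0.44 on the log2 scale, against 0.15 with that library. For H19 and Igf2 the fractions overlapped in both conditions, and Malat1 to Neat1 was lower on ribosomes without overlap in HTT-deleted cells (-1.21) and with overlap in control cells (-0.80). Without total HTT-deleted replicate 1 the Malat1 to Neat1 value in HTT-deleted cells was -0.77.

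Gm26917 was set against Gm42418, its close neighbour on chromosome 17. Of the exonic bases of Gm42418, 99.5% lie under opposite-strand exons, those of the ribosomal RNA gene CT010467.1 among them. The counts of Gm42418 are thus uncertain where reads match repeated ribosomal sequence, as are those of Gm26917. The part of this in their ratio was not tested. Gm42418 had 1993, 4785 and 1987 CPM in ribosome-associated RNA of HTT-deleted cells, against 3312, 2788 and 2036 CPM in their total RNA, and its log2 fold change was 0.10 (SE 0.41) there and 0.07 (SE 0.33) in control cells. The ratio of Gm26917 to Gm42418 differed by -3.74 on the log2 scale in HTT-deleted and -3.72 in control cells, with no overlap (exact permutation p = 0.1 for each), and by -3.68 in HTT-deleted cells without total replicate 1. The neighbouring annotations thus had different fold changes between the fractions.

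**Figure D4:**
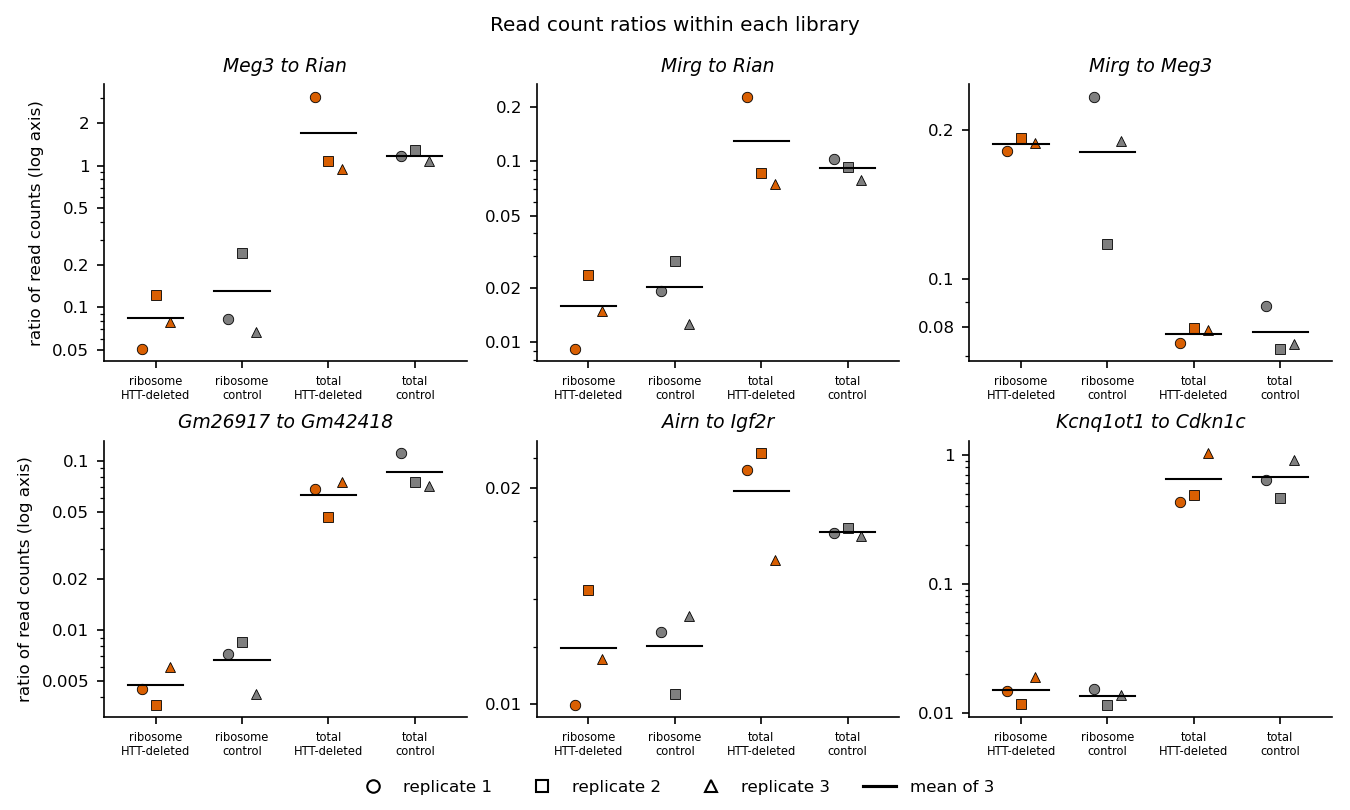
Ratios of read counts within each library (log axis) for 6 gene pairs, with HTT-deleted libraries in orange, control libraries in grey, a symbol for each replicate number and a line at the mean of 3. Meg3 to Rian is near or above 1 in total RNA and 0.0511 to 0.240 on ribosomes, while Mirg to Meg3 is the one ratio shown that is higher on ribosomes.

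Other genes of these pathways were read from lists. Of the protein-coding neighbours of the members, 30 of 43 were tested. None was called between the fractions in HTT-deleted cells, where 0.896% of all genes were, against 2 lower and 1 higher in control cells, where 25% of all genes were, and the median log2 fold changes were -0.01 and 0.11. Blocked on the replicate number, 5 were called lower and 8 higher in control cells, where 25.9% and 24.3% of all genes were. In control cells the neighbours were thus called no more often than genes in general. In control cells the called genes were Begain (-0.92, edgeR adjusted p = 0.0338), Igf2r, the receptor that clears IGF2 (-0.42, edgeR adjusted p = 0.0319), and Ndn, a growth suppressor (0.37, edgeR adjusted p = 0.0437). Dlk1, the paternally expressed partner of Meg3, had a log2 fold change of 0.25 in HTT-deleted and 0.14 in control cells, and neither was called.

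Messengers of nuclear body proteins were counted in the same way. Of 14 nuclear speckle genes, 3 were called lower in HTT-deleted cells and 11 in control cells, and none higher. Their median log2 fold changes were -0.67 and -0.76. Over all genes tested, 0.896% were called lower in HTT-deleted cells, and 15% lower and 10% higher in control cells. With the block the count of speckle genes in HTT-deleted cells was 1, where 0.663% of all genes were called lower. Without total HTT-deleted replicate 1 that count was 10, where 11.9% of all genes were called lower. Srsf11, a splicing factor gene, fell in both (-1.29, edgeR adjusted p = 0.0199 in HTT-deleted cells, and -1.19, edgeR adjusted p = 0.00166 in control cells). Prpf4b, a kinase of the spliceosome, fell by 1.26 in control cells (SE 0.11). Of 16 paraspeckle genes, 0 were called in HTT-deleted cells, and in control cells 7 were called lower and 1 higher, among them Ewsr1, an RNA-binding protein gene (-0.61, edgeR adjusted p = 0.00366). In HTT-deleted cells 7 were called lower and 1 higher without total HTT-deleted replicate 1, where 11.9% and 7.95% of all genes were.

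Other long noncoding RNAs were mixed. Of the other autosomal ones listed, 1 of 13 tested was called lower in HTT-deleted cells and 5 of 15 in control cells. Over all genes tested, 0.896% were called lower in HTT-deleted cells and 15% in control cells. With the block the count of these RNAs in control cells was 8, where 25.9% of all genes were called lower. Without total HTT-deleted replicate 1 the count was 5 of 14 in HTT-deleted cells, where 11.9% of all genes were called lower. Dnm3os, a microRNA host, fell in both, with 52.9 ± 12.6 CPM in ribosome-associated and 287 ± 97.6 CPM in total RNA of HTT-deleted cells, and 69.7 ± 34.8 CPM and 382 ± 39.4 CPM in those of control cells (SD, n = 3 each). Its log2 fold changes were -2.45 and -2.47. Among 15 small nucleolar RNA host genes, 2 were called lower in HTT-deleted cells. In control cells 3 of these hosts were called lower and 2 higher, or 4 lower and 5 higher with the block. Of all genes in control cells, 15% were called lower and 10% higher, or 25.9% lower and 24.3% higher with the block. Snhg11 (-3.96 and -3.0) and Snhg17 (-1.43 and -1.66) fell in both conditions, and Snhg8 rose in control cells (0.65, edgeR adjusted p = 0.0124). Snhg11 averaged only 0.0719 and 0.0948 CPM in ribosome-associated RNA of HTT-deleted and control cells. Both means lie under the limit of 3 counts, 0.0981 to 0.179 CPM, so the size of its fold changes is uncertain. Small and structural RNAs without a poly(A) tail were close to absent from the counts: of 12 identifiers, 8 were at 0 in every library, and the highest, Rn7sk, had 2 to 63 counts. The sources used here do not give how messenger RNA was selected, and its part in the levels of Malat1 and Neat1 was not tested.

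The comparison of HTT-deleted with control cells asks whether loss of huntingtin altered these RNAs. By edgeR's quasi-likelihood test none of the 10 was called in either fraction. The test called 0% of 14588 genes in ribosome-associated RNA and 0% of 14759 in total RNA. Htt, the deleted gene, was not called either, at -1.78 and -2.16 on the log2 scale. The lack of a call therefore does not show that a member was unchanged. At an unadjusted p under 0.05, 110 genes of ribosome-associated RNA (0.754%) and 44 of total RNA (0.298%) passed, and none of the members did. Both shares are below what a threshold of 0.05 would pass with no effect at all, so this fit was conservative. It left out the pairing of same-numbered libraries, and that none of the members passed says little about them. DESeq2 called 1 and 3 genes, none a member. The HTT-deleted and control libraries overlapped for all 10 in both fractions, as they did for most genes. In ribosome-associated RNA 2.63% of genes were higher and 2.82% lower with no overlap, and in total RNA 1.61% of genes were higher and 2.6% lower with no overlap. In bulk samples, fewer cells of a type and less RNA per cell cannot be told apart.

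In ribosome-associated RNA the members' median log2 fold change was -0.02, against 0.00 over all genes. Meg3 had the lowest value, with 9.80 ± 5.08 CPM in HTT-deleted and 16.8 ± 15.8 CPM in control cells (SD, n = 3 each), which is -0.77 on the log2 scale with a 95% interval of -2.49 to 0.94. Without control replicate 2, which had 35.0 CPM, the value was 0.35. Malat1 followed at -0.42 (95% interval -1.17 to 0.34), which was -0.0316 without control replicate 2 and -0.64 without control replicate 1, and Mirg at -0.41 (-1.73 to 0.91). The other 7 lay between -0.10 and 0.05, where the intervals of Rian (-0.47 to 0.44) and Neat1 (-0.44 to 0.52) were the narrowest.

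Under the replicate block, 247 of 14588 genes were called in ribosome-associated RNA (1.69% of genes, split into 1.46% higher and 0.233% lower), and none of the 10 was among them. The smallest blocked standard errors belonged to Rian (-0.01, SE 0.0818) and H19 (-0.02, SE 0.0972). In pairs 2 and 3 alone with the block, 0.0944% of genes were called in ribosome-associated RNA and no member, and 0.629% in total RNA, among them Meg3 at -0.39, which is a description for the same reason.

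In total RNA the median was -0.13, against 0.01 over all genes. Rian had the lowest value, with 141 ± 55.2 CPM in HTT-deleted and 191 ± 40.0 CPM in control cells (SD, n = 3 each), which is -0.41 on the log2 scale with a 95% interval of -1.15 to 0.32. It was lower in HTT-deleted cells in 3 of 3 same-numbered pairs, and without total HTT-deleted replicate 1 the value was -0.17. Snhg14 had -0.35 (-1.21 to 0.51), or -0.23 without that library. Airn had -0.20 (-0.89 to 0.50), or 0.0714 without it. Malat1 had the highest value, 0.18 (-0.92 to 1.29), and -0.50 without that library. Gm26917 also changed sign, at 0.15 with it and -0.14 without it, as did H19, at -0.13 and 0.00199. Kcnq1ot1 had 0.16 with the library and 0.0557 without it, Meg3 -0.12 and -0.38, and Mirg -0.14 and -0.36. Neat1 was at 0.00 (-0.39 to 0.40), or -0.0613 without the library, with 514 ± 25.6 CPM in HTT-deleted and 525 ± 60.4 CPM in control cells (SD, n = 3 each).

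The authors' deposited table, which is named for RUVSeq and edgeR and whose settings are not stated, lists Rian at a log2 fold change of -0.454 and a false discovery rate of 0.0304 in total RNA. It is the only member under 0.05 in the authors' deposited table, where 4.97% of 16974 genes are under 0.05 in total RNA and 4.21% of 16235 genes in ribosome-associated RNA. For Meg3 in ribosome-associated RNA the authors' deposited table gives -0.49 at a false discovery rate of 0.135. Htt is listed there at -2.18 with a false discovery rate of 3.98e-39 in total RNA. In ribosome-associated RNA it is listed at -1.93 with a false discovery rate of 4.48e-07. The authors' deposited table holds no values of single samples.

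**Figure D5:**
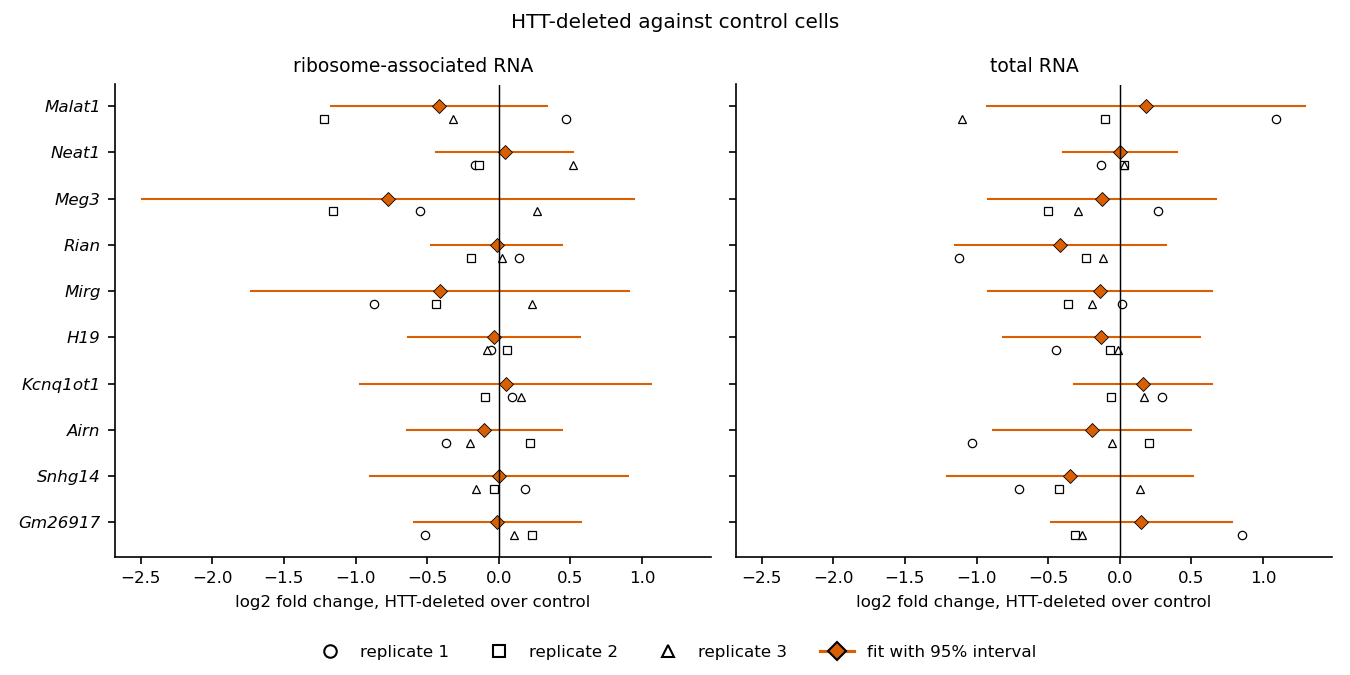
Log2 fold change of HTT-deleted over control cells for each of the 10 RNAs in ribosome-associated (left) and total RNA (right). Diamonds with bars are the edgeR fit and its 95% interval, and open symbols below them are the 3 same-numbered pairs. Every interval includes 0, and Rian, Airn and Gm26917 of total RNA have replicate 1 far from the other pairs.

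The change of the ribosome-associated to total ratio with HTT deletion was tested as an interaction over all 12 libraries. None of the 10 was called, where 0% of 15574 genes were, with 85 genes (0.546%) at an unadjusted p under 0.05 and none of them a member. That share is again below what the threshold would pass with no effect. The values ran from -0.62 for Meg3 (95% interval -2.41 to 1.18) and -0.55 for Malat1 (-1.83 to 0.72) to 0.37 for Snhg14 (-0.79 to 1.53) and 0.41 for Rian (-0.46 to 1.29). Rian was above 0 in 3 of 3 same-numbered sets, and without total HTT-deleted replicate 1 it was 0.17. Kcnq1ot1, Neat1, H19, Airn and Gm26917 lay between -0.13 and 0.12, and Mirg was at -0.24. Without that library Malat1 was at 0.11, Meg3 at -0.36, Snhg14 at 0.25, Airn at -0.16, Gm26917 at 0.14, Neat1 at 0.12, and Kcnq1ot1, H19 and Mirg between -0.0299 and 0.0281, so that Malat1, Kcnq1ot1, H19, Airn and Gm26917 changed sign. The calls of Malat1, Neat1, Airn, Snhg14 and Rian in control but not in HTT-deleted cells are therefore not shown to differ between the conditions.

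Of the macrophage markers, all 18 had log2 fold changes above 0 in both fractions, with medians of 0.74 in ribosome-associated and 0.72 in total RNA, and none was called. With the replicate block 11 of 18 were called higher in ribosome-associated RNA and 0 in total RNA, where 1.46% and 0% of all genes were. Without total HTT-deleted replicate 1, 3 of 18 were below 0 in total RNA and the median was 0.16. Between fractions, the block called 14 of 18 higher on ribosomes in control cells, where 24.3% of all genes were called higher. Their summed level was 2829 to 8567 CPM in HTT-deleted and 1220 to 4960 CPM in control libraries of ribosome-associated RNA, and 1824 to 7484 CPM against 802 to 3254 CPM in total RNA. The summed fibroblast markers were 31310 to 40240 CPM against 31810 to 47490 CPM in ribosome-associated RNA and 27250 to 48380 CPM against 39920 to 51340 CPM in total RNA. Their part in the members' values was not tested.

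Across the 12 libraries the genes whose log2 CPM was most like that of 4 members were found among 12400 genes, as a description, since all points share the fraction difference and the same cultures. Meg3 was most like Mirg (Pearson r = 0.995), then Vamp2 (0.995), Dtx3 (0.992), Col27a1 (0.991) and Tcea2 (0.991). Malat1 was most like Rccd1 (0.963), Zfhx3 (0.962), Larp1 (0.960), Grk6 (0.958) and Bc1 (0.957). Neat1 was most like Atg16l2 and Gramd1a (0.977 each), Rsrp1 (0.972), Tmem161b (0.968) and Kmt5c (0.967). H19 was most like Rell1 (0.974), Tubb6 (0.969), Nap1l4 (0.962), St13 (0.958) and Pdgfd (0.953). Rian was not among the 5 nearest genes of Meg3, although it lies between Meg3 and Mirg.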

How the data were processed

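Primary MEF libraries of total and ribosome-associated RNA (stranded, from 250 ng of RNA with quality numbers above 9, per the labels' protocols) were used as 4 groups of 3. The values deposited by the authors are raw read counts for each Ensembl gene, made with STAR 2.7.2b and HTSeq 0.11.1 on GRCm38 (mm10), with FastQC, per the submitters' processing notes. The strand setting of the counting, the annotation release and the selection of messenger RNA are not stated in the sources used here. The authors' deposited table gives, per the file headers, a p-value, a false discovery rate, a log2 fold change, an average log2 CPM and a likelihood ratio score for each gene and fraction. Its file name speaks of RUVSeq and edgeR.

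Gene names came from GENCODE M21 for 55394 of 55487 genes, and 5 summary entries per library that name no gene were left out of library sizes and tests. Reads in no feature were 2.64 to 3.30% in ribosome-associated and 6.94 to 7.73% in total libraries. No pair of replicates agreed within sampling noise (chi-square per degree of freedom 35.1 to 178), so all 12 were kept. Counts were filtered with filterByExpr, scaled by TMM and tested with edgeR 4.0.16 (robust quasi-likelihood, R 4.3.3) on all genes of the groups compared, at a Benjamini-Hochberg adjusted p under 0.05, and the scripts were tested on simulated data. A standard error is the fitted log2 fold change divided by the root of its F statistic. TMM factors enter all CPM, and ratios and correlations used 0.5 and a prior count of 2 as offsets. Alternatives were other scalings and filters, DESeq2 1.42.0, limma 3.58.1 voom, a replicate block, 1 fit of all libraries, pairs 2 and 3 with the block, and leaving out each library. The ratio tests, and the ratios without total HTT-deleted replicate 1, were chosen after seeing the data. Total and ribosome-associated RNA were taken from the same suspension per the labels' protocols. Same-numbered libraries of all 4 comparisons deviated together (correlations across genes 0.227 to 0.737), so the numbers were taken to pair the samples. The main fits and the permutation tests did not use this pairing, and the fit with the replicate block is given as an alternative. All 10 members and Htt are named in every comparison, up to 4 genes with the smallest p of each list, and the 5 genes most like Malat1, Neat1, Meg3 and H19 with at least 1 CPM and no provisional name. The members and lists were chosen with earlier results of these data known, and the genes outside this rule (Dlk1, Gm42418, Myod1) were named for their place or role.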

Additional observations from a re-analysis of the deposited data

How the results depend on the processing

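The limits lie in 3 replicates a group, in 1 total library that stands apart and in few reads of some members per ribosome-associated library. These reads numbered 20 to 33 for Kcnq1ot1, 20 to 51 for Snhg14 and 25 to 90 for Mirg. Fits of pairs 2 and 3 leave few degrees of freedom, and their values and calls are a description that supports no result.

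Called genes between HTT-deleted and control cells in total RNA numbered 1 with no filter, 3 with DESeq2 and 94 with pairs 2 and 3 and the replicate block (1 member, Meg3, at -0.39), against 0 otherwise. In ribosome-associated RNA they numbered 1 with DESeq2, 247 with the replicate block and 14 with pairs 2 and 3. Between fractions in HTT-deleted cells they numbered 208 with no filter, 86 at a filter of 5 CPM, 866 with DESeq2 (7 members), 1135 with all 12 libraries in 1 fit (7 members) and 8333 with pairs 2 and 3 (9 members), and 97 with the block. In control cells they numbered 7524 with the replicate block, 1646 with all 12 libraries and 7445 with pairs 2 and 3. Leaving out each library gave 0 to 3008 genes and 0 to 8 members in HTT-deleted cells, and 1507 to 3251 genes and 6 to 9 members in control cells. Omitting total HTT-deleted replicate 1 gave the highest count in HTT-deleted cells, and omitting total control replicate 1, 2 or 3 gave 1507, 2119 and 2197 in control cells. The block changed no other call of a member than that of H19 in control cells.

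No direction of a member between fractions turned under an alternative other than the omission of a library, where Rian in HTT-deleted cells ran from -0.56 to 0.0142. Small effects of HTT deletion, none of them called, did turn. In total RNA, Malat1 was -0.000339 with voom, -0.0130 with the block and -0.60 with pairs 2 and 3, Neat1 was -0.0125 by library totals, -0.0154 with no filter and -0.02965 with all 12 libraries, and pairs 2 and 3 gave 0.0818 for Airn and -0.28 for Gm26917. In ribosome-associated RNA, library totals gave 0.0297 for Rian, 0.000419 for H19 and 0.0295 for Gm26917, which was 0.17 with pairs 2 and 3. Snhg14 there was -0.000159 with RLE, -0.000275 with DESeq2, -0.00215 with voom, -0.00840 with the block, -0.00294 with all 12 libraries and -0.0903 with pairs 2 and 3. In the interaction, pairs 2 and 3 gave 0.11 for Mirg, -0.10 for Airn and 0.47 for Gm26917. The cause was not tested.

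Leaving out each library in total RNA gave -0.50 to 0.51 for Malat1, -0.0613 to 0.10 for Neat1, -0.38 to 0.13 for Meg3, -0.36 to 0.0928 for Mirg, -0.40 to 0.0514 for H19, -0.41 to 0.0714 for Airn and -0.14 to 0.32 for Gm26917. In ribosome-associated RNA it gave -0.64 to -0.0316 for Malat1, -0.16 to 0.22 for Neat1, -0.24 to 0.31 for Kcnq1ot1, -1.27 to 0.35 for Meg3, -0.16 to 0.17 for Rian, -0.94 to 0.18 for Mirg, -0.24 to 0.21 for H19, -0.21 to 0.0666 for Airn, -0.28 to 0.32 for Snhg14 and -0.29 to 0.19 for Gm26917. In the interaction it gave -0.89 to 0.11 for Malat1, -0.14 to 0.24 for Neat1, -0.39 to 0.21 for Kcnq1ot1, -1.12 to 0.53 for Meg3, -0.77 to 0.37 for Mirg, -0.10 to 0.40 for H19, -0.16 to 0.33 for Airn and -0.42 to 0.14 for Gm26917.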
